A study of Mus musculus with 8 samples.

Results

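A set of 10 heat shock proteins and chaperones were followed by their mRNA levels in CD8+ T cells that recognise a tumour antigen. The 10 genes were Hspa1a, Hspa1b, Dnajb1, Hsph1, Hspa8, Hsp90aa1, Hsp90ab1, Hspd1, Hspe1 and Hspa5. They were chosen by name, as the rows of each gene table that carry these symbols, and make up 10 of the 23746 rows. All 10 were measured in every library and passed the filter on low values, as did 9782 genes in all. The samples were live-sorted CD8+ T cells of BALB/c mice that bound the AH1 tetramer, which carries a peptide from the envelope protein of a murine leukaemia virus. The mice were either wild type or Cd69-/- (called Cd69-deficient below), and the cells of each genotype were sorted into a stem-like subset and a subset named term diff in the labels (term-diff below). This gave 4 groups with 2 libraries in each: wild-type stem-like, wild-type term-diff, Cd69-deficient stem-like and Cd69-deficient term-diff. The strain, the tetramer sort and the CD8+ gate were common to all 4 groups, and the labels give no tumour, sex, age, number of mice or gates for the subsets. They also do not say whether libraries came from separate mice, so the p-values below rest on the spread between these libraries, which may be technical. Those from limma also draw on the spread of other genes.

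Heat shock proteins are chaperones: they bind unfolded stretches of other proteins and, mostly at the cost of ATP, help them fold, stop them clumping or hand them on for degradation. HSP70 proteins work with J-domain proteins that bring them their clients and with exchange factors that reset them, and HSP90 proteins finish the folding of kinases, receptors and transcription factors, among them kinases of T cell receptor signalling. Some members are made in all cells at all times, others are switched on by heat shock factor 1 when unfolded protein builds up in the cytosol, and those of the endoplasmic reticulum answer to a separate pathway, the unfolded protein response.

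None of the 10 chaperones passed the test between the subsets or between the genotypes. The constitutive cytosolic chaperones were among the most abundant mRNAs: Hsp90ab1 had the 20th highest mean of 9616 genes outside the small RNAs, and Hspa8 the 47th. The stress-inducible pair Hspa1a and Hspa1b together varied 1.41- to 2.13-fold between the libraries of a group. Hspa5, the HSP70 of the endoplasmic reticulum, was 0.30 ± 0.10 (SE) higher in term-diff cells on the log2(FPKM + 1) scale without passing the test (limma, adjusted p = 0.0768), while 12 of 28 other genes of endoplasmic reticulum folding rose and 1 fell (10.5% and 9.93% of all genes). Without 1 library at a time, 7 to 9 of the 28 rose, and 8 did with libraries scaled to equal sums outside small RNA. Unless another scale is named, levels are FPKM (fragments relative to transcript length and library size, so that genes can be compared per length), and differences are in log2(FPKM + 1) ± standard error with p-values from limma adjusted over all 9782 genes.

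The libraries fitted their labels. Cd69 averaged 23.0 ± 0.70 FPKM (SD, n = 2) in wild-type stem-like and 11.7 ± 1.8 in wild-type term-diff, against 3.05 ± 0.90 and 2.32 ± 0.16 in the Cd69-deficient groups. Tcf7, a transcription factor of stem-like T cells, averaged 59.7 and 50.6 FPKM in the stem-like groups and 0.65 and 0.30 in the term-diff groups. All 9 CD8 T cell markers reached 1 FPKM, summing to 1064 to 1615 FPKM, while the 10 myeloid markers with a row summed to at most 8.78 and 5 B cell markers to at most 0.889. The 9 tumour and stroma markers, chiefly Igfbp7, summed to 27.8 to 35.2 FPKM in the stem-like libraries and 8.78 to 11.7 in the term-diff libraries. Of these 9, 2 reached 1 FPKM, Igfbp7 and Pecam1. The highest of the others, Epcam, reached 0.715 FPKM. Markers of CD4 and regulatory T cells (5 of 5 reaching 1 FPKM) had a lower sum in term-diff cells as well. They summed to 12.6 to 18.2 FPKM in the stem-like and 6.74 to 11.9 in the term-diff libraries. Of the 4 tested, 3 were lower and 1 higher in term-diff cells on average over genotypes. The higher one, Zbtb7b, was at 1.16 and 1.03 FPKM in wild-type stem-like and 2.03 and 2.36 in wild-type term-diff. Without Cd69 its subsets overlapped, at 2.10 and 1.61 in stem-like and 2.21 and 1.72 in term-diff cells. Markers of NK cells (2 of 5 reaching 1 FPKM) summed to 19.7 to 27.3 FPKM in the stem-like and 28.1 to 38.0 in the term-diff libraries. The higher sum was chiefly that of Klre1, while Eomes went the other way. Eomes averaged 6.23 FPKM in wild-type stem-like and 3.43 in wild-type term-diff, and 5.11 and 1.51 in the Cd69-deficient groups. The CD8 T cell markers summed to 1432 to 1615 FPKM in Cd69-deficient term-diff cells and to at most 1290 in the other groups. The part of these marker sums in the differences below was not tested. Implied fragments, computed from the width of the deposited confidence intervals, summed to 2055411 to 2591061 per library. Small RNAs held 56.1% to 84.5% of the summed FPKM, least in the wild-type libraries numbered 2 of both subsets. In such bulk samples, fewer cells of a type and less RNA per cell cannot be told apart.

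**Figure D1:**
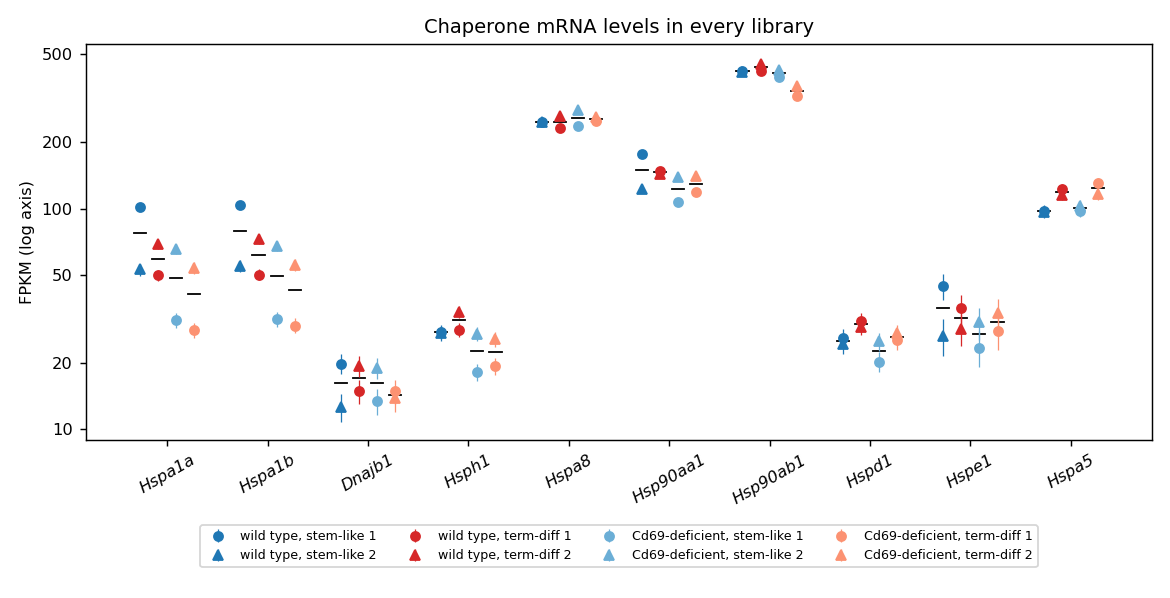
Level of each chaperone in every library, in FPKM on a log axis; colours are groups, circles and triangles are replicates 1 and 2, vertical lines are the deposited 95% confidence intervals (counting error) and dashes are group means. Hspa1a and Hspa1b spread from about 28.2 to 103 FPKM, while Hspa8 stays between 232 and 279, and the 4 term-diff libraries of Hspa5 lie above its 4 stem-like libraries.

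Hspa1a and Hspa1b are the stress-inducible HSP70 genes. They lie 10120 bases apart on the minus strand of chromosome 17 (mm10), Hspa1a at chr17:34969359-34972156 and Hspa1b at chr17:34956429-34959238, each with a single exon. Their promoters are shown because the pair moved together in every library. The 150 bases before each start site, from RefSeq on GRCm38.p6 and written on the minus strand (chr17:34972157-34972306 and chr17:34959239-34959388), overlap no annotated exon. Capitals mark the core of the heat shock element, the binding site of heat shock factor 1, searched as GAANNTTC or TTCNNGAA on both strands.
Hspa1a: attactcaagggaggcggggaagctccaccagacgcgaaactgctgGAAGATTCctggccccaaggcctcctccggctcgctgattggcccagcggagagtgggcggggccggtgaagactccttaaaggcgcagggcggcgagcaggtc
Hspa1b: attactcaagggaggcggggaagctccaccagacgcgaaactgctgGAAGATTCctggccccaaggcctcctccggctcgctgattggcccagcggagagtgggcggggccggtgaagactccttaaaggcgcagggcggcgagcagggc

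The promoters were identical at 149 of these 150 bases, and at 247 of 250 bases when read further upstream. A core of either form occurred in 12.8% of 32851 upstream windows of 250 bases in the RefSeq table, and CCAAT on either strand in 33.8%. Both Hspa1 promoters also hold the CCAAT box on the other strand, and neither holds an endoplasmic reticulum stress element. Of the 10 chaperones, 7 had promoter windows in that table; Hspa8, Hsp90aa1 and Hsp90ab1 are named only.

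In stem-like cells, Hspa1a was at 102 and 53.1 FPKM in wild type and at 31.3 and 66.0 without Cd69, and in term-diff cells at 50.1 and 68.9 and at 28.2 and 53.8. The first wild-type stem-like library was the highest and both Cd69-deficient libraries numbered 1 were the lowest, and every pair of groups compared overlapped. Hspa1b followed it library by library, with stem-like values of 103 and 54.9 in wild type and 31.5 and 67.6 without Cd69, and term-diff values of 50.3 and 73.0 and of 29.6 and 55.7. The ratio of Hspa1a to Hspa1b stayed between 0.944 and 0.997. The rows are not independent measurements, because 52.5% of the 76-base stretches of the Hspa1a transcript also occur in Hspa1b, and 55.6% of those of Hspa1b in Hspa1a, so that how reads were shared between the genes is uncertain.

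Added together in stem-like cells, both genes reached 205 and 108 FPKM in wild type and 62.8 and 134 without Cd69, and in term-diff cells 100.4 and 142 and 57.8 and 109.5. Libraries of 1 group thus differed 1.90-, 2.13-, 1.41- and 1.90-fold in that order. Between subsets Hspa1a differed by -0.32 ± 0.44 in wild type (95% interval -1.33 to 0.70, adjusted p = 0.69) and by -0.22 ± 0.44 in Cd69-deficient cells (-1.23 to 0.80, adjusted p = 0.8). Between genotypes it averaged 44.8 ± 18.2 FPKM in the 4 Cd69-deficient libraries and 68.5 ± 23.6 in the 4 wild-type libraries (SD, n = 4). That difference, averaged over subsets, was -0.63 ± 0.31 with an interval from -1.35 to 0.09 (adjusted p = 0.462). The 4 libraries of each genotype overlapped. The sum of both genes gave -0.64 for the same comparison (adjusted p = 0.469).

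Dnajb1 (chr8:83608175-83611903, plus strand) encodes the J-domain partner that stimulates HSP70 and is itself induced by heat. In stem-like cells, Dnajb1 was at 19.9 and 12.7 FPKM in wild type and at 13.4 and 19.0 without Cd69, and in term-diff cells at 14.9 and 19.4 and at 14.9 and 13.9. All 4 groups overlapped, and the gene was the least abundant of the 10. Its largest difference between groups was -0.23 ± 0.23, in term-diff cells between the genotypes (interval -0.76 to 0.31, adjusted p = 0.661). Neither of its promoter windows in the RefSeq table holds a core of the heat shock element.

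Hsph1 (chr5:149616845-149636315, minus strand) encodes HSP110, an exchange factor that resets HSP70 and helps it to pull aggregates apart. The 30 bases around its heat shock element core are shown because Hsph1 is the chaperone whose libraries separated by genotype. The part of the core in that separation was not tested. The bases lie at chr5:149636351-149636380 (GRCm38.p6, RefSeq, minus strand), overlapping an annotated exon of the gene, with the core in capitals.
Hsph1: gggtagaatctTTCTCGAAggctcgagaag

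In stem-like cells, Hsph1 was at 27.7 and 27.4 FPKM in wild type and at 18.2 and 27.1 without Cd69, and in term-diff cells at 28.3 and 34.1 and at 19.4 and 25.6. All 4 Cd69-deficient libraries lay below all 4 wild-type libraries, narrowly at the closest pair (27.1 against 27.4). The means were 22.6 ± 4.4 and 29.4 ± 3.2 FPKM (SD, n = 4), and the exact permutation test over the 8 libraries gave p = 0.0286 (2-sided), the smallest it can give. That test exchanged libraries regardless of subset and was not adjusted over the 10 genes. Its p-value restates the separation for which Hsph1 was picked out. In the fit across all genes the difference averaged over subsets was -0.38 ± 0.15 (interval -0.71 to -0.05, unadjusted p = 0.0305), which did not pass (limma, adjusted p = 0.353; 0.256 to 0.691 over the alternatives tried). Of all 9782 genes, 3.07% separated the 4 libraries of each genotype in either direction and 1.32% in this one. Hsph1 was the 1 gene of the 10 that did so. In term-diff cells alone the difference was -0.46 ± 0.21 (adjusted p = 0.341), and in stem-like cells -0.30 ± 0.21 (adjusted p = 0.815).

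Hspa8 (chr9:40801273-40805199, plus strand) encodes HSC70, the constitutive HSP70 that handles newly made proteins and uncoats clathrin vesicles. In stem-like cells, Hspa8 was at 248.2 and 247.9 FPKM in wild type and at 238 and 279 without Cd69, and in term-diff cells at 232 and 263 and at 249.9 and 260.1. Its highest library was 1.20 times its lowest, the narrowest range of the 10 genes. No difference between groups went beyond 0.06 log2; the subset differences were -0.01 ± 0.19 in wild type (interval -0.44 to 0.42) and -0.02 ± 0.19 in Cd69-deficient cells (-0.45 to 0.42). Those intervals still allow differences of more than 0.4 log2. Their width also draws on the spread of other genes (the residual SD of Hspa8 within groups was 0.10 log2). Hspa8 exceeded the sum of both inducible genes in every library, by 1.21-fold in the first wild-type stem-like library and by 4.33-fold in the first Cd69-deficient term-diff library. Of the 76-base stretches of its transcript, 67.7% also occur in other annotated genes, most of them in the processed pseudogene Gm15459, so its level may hold or lack shared reads.

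Hsp90aa1 (chr12:110691036-110696395, minus strand) encodes HSP90 alpha, the form that stress raises further. In stem-like cells, Hsp90aa1 was at 176 and 123 FPKM in wild type and at 107 and 139 without Cd69, and in term-diff cells at 148 and 144 and at 119 and 141. The first wild-type stem-like library was the highest for this gene as for the Hspa1 pair, and the first Cd69-deficient stem-like library was the lowest. The genotype difference averaged over subsets was -0.22 ± 0.16 (interval -0.58 to 0.14, adjusted p = 0.611). The subset difference averaged over genotypes was 0.04 ± 0.16 (-0.32 to 0.39). Stretches shared with other genes, chiefly the transcribed pseudogene Gm12346, make up 52.9% of its transcript.

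Hsp90ab1 (chr17:45567778-45573261, minus strand) encodes HSP90 beta, the constitutive form, and was the most abundant of the 10 with a mean of 403 FPKM. In stem-like cells, Hsp90ab1 was at 423 and 418 FPKM in wild type and at 397 and 427 without Cd69, and in term-diff cells at 421 and 453 and at 323 and 362. Both Cd69-deficient term-diff libraries lay below the other 6. How many of all genes did the same was not counted, but in term-diff cells the genotypes did not overlap, in either direction, for 47.8% of all genes. The genotype difference in term-diff cells was -0.35 ± 0.21 (interval -0.84 to 0.13, adjusted p = 0.454), against -0.03 ± 0.21 in stem-like cells. The interaction, which tests whether those 2 genotype differences are unequal, was -0.32 ± 0.30 (-1.01 to 0.37, adjusted p = 0.701). These standard errors also draw on the spread of other genes (the residual SD of Hsp90ab1 within groups was 0.08 log2). The beta form exceeded the alpha form 2.40- to 3.70-fold, and 0.654% of its 76-base stretches occur in other genes.

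Hspd1 and Hspe1 encode HSP60 and HSP10, the barrel and the lid of the chaperonin that folds proteins inside mitochondria. They lie head to head on chromosome 1, Hspd1 at chr1:55077834-55087932 on the minus strand and Hspe1 at chr1:55088148-55091317 on the plus strand, with 215 bases between them. The shared interval holds 3 overlapping cores of the heat shock element in a row, shown in capitals in 30 bases of the plus strand (chr1:55088053-55088082, GRCm38.p6, RefSeq), overlapping an annotated exon of Hspd1. A window with both forms of the core was found in 1.02% of the 32851 upstream windows.
Hspd1-Hspe1: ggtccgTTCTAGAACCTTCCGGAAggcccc

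In stem-like cells, Hspd1 was at 26.1 and 24.4 FPKM in wild type and at 20.3 and 25.1 without Cd69, and in term-diff cells at 31.0 and 29.2 and at 25.4 and 27.2. Within each genotype both term-diff libraries lay above both stem-like libraries. The subsets did not overlap, in either direction, for 55.2% of all genes in wild type and 56.8% in Cd69-deficient cells. How many genes did so in both was not counted. The subset difference averaged over genotypes was 0.23 ± 0.09 (interval 0.01 to 0.44, unadjusted p = 0.0404) and did not pass (limma, adjusted p = 0.127). In stem-like cells, Hspe1 was at 44.6 and 26.5 FPKM in wild type and at 23.5 and 30.5 without Cd69, and in term-diff cells at 35.3 and 28.6 and at 27.8 and 33.6. Its subset difference was 0.04 ± 0.18 (-0.37 to 0.44), with all 4 groups overlapping. Hspe1, a short transcript, rests on 112 to 211 implied fragments per library and has a deposited interval of up to 18.9% on either side, the widest of the 10. Other genes share 33.4% of the 76-base stretches of Hspd1 and 23.5% of those of Hspe1.

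Hspa5 (chr2:34772090-34776529, plus strand) encodes BiP, the HSP70 of the endoplasmic reticulum, which also holds the sensors of unfolded protein in check. Its promoter is shown because, among the 7 genes with a window in the RefSeq table, it alone holds an endoplasmic reticulum stress element, the site of the unfolded protein response factors. Like the windows of Dnajb1, it holds no heat shock element core in the 250 bases before its start. The stress element was found in 0.113% of the upstream windows. The element stands in capitals in 30 bases of the plus strand (chr2:34772019-34772048, GRCm38.p6, RefSeq), overlapping an annotated exon of Hspa5.
Hspa5: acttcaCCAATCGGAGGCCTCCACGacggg

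In stem-like cells, Hspa5 was at 98.0 and 96.4 FPKM in wild type and at 97.5 and 103 without Cd69, and in term-diff cells at 123 and 116 and at 131 and 117. The exact permutation test between subsets gave p = 0.0286, the smallest possible. It exchanged libraries regardless of genotype, was not adjusted over the 10 genes, and restates the separation that follows. The 4 term-diff libraries all lay above the 4 stem-like libraries, with means of 122 ± 7.1 and 98.8 ± 3.1 FPKM (SD, n = 4). Of all 9782 genes, 21.9% separated the subsets in this way in either direction and 10.9% upwards, and Hspa5 was 1 of 10 chaperones to do so. The difference was 0.29 ± 0.14 in wild type (interval -0.04 to 0.62, adjusted p = 0.228) and 0.30 ± 0.14 in Cd69-deficient cells (-0.03 to 0.63, adjusted p = 0.248). Averaged over genotypes it was 0.30 ± 0.10 (0.06 to 0.53, unadjusted p = 0.0192, adjusted p = 0.0768). Over 20 alternatives the adjusted p ran from 0.0467, with no trend in the prior, to 0.606 with quantile normalization, where the difference was 0.10. The genotypes did not separate for Hspa5 (0.05 ± 0.10, interval -0.19 to 0.28).

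Many other genes of endoplasmic reticulum folding had higher levels in term-diff cells. Of 28 chaperones, oxidoreductases and sensors, 12 rose and 1 fell in the average over genotypes, with a median of 0.30 against 0.02 for all genes, of which 10.5% rose and 9.93% fell. In wild type alone 9 rose and 1 fell, against 7.24% and 5.83% of all genes, and in Cd69-deficient cells 3 rose and 0 fell, against 3.88% and 5.56%. The wild-type count is sensitive to single libraries: it was 1 without wild-type stem-like replicate 1, 3 without wild-type stem-like replicate 2 or term-diff replicate 1, and 2 without term-diff replicate 2. The Cd69-deficient count was 0 without stem-like replicate 2 or either term-diff library, 1 without stem-like replicate 1, and 0 with libraries scaled to equal sums outside small RNA, while the averaged count stayed between 7 and 15, with 7 without Cd69-deficient term-diff replicate 1 and 8 under that scaling. The sums of the tumour and stroma markers and of the CD4 and regulatory T cell markers were lower in term-diff cells. Of the NK cell markers, Klre1 was higher there and Eomes lower. The part of these markers in the counts was not tested.

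Hsp90b1 encodes GRP94, the HSP90 of the endoplasmic reticulum, and led the list. In stem-like cells, Hsp90b1 was at 111 and 106 FPKM in wild type and at 96.3 and 117 without Cd69, and in term-diff cells at 178 and 180.4 and at 182 and 163. No stem-like library reached a term-diff library. The averaged difference was 0.70 ± 0.12 (limma, adjusted p = 0.00392), and Hsp90b1 rose in both genotypes alone (0.71, adjusted p = 0.0259, and 0.69, adjusted p = 0.0365). Dnajb11, a J-domain partner of BiP, rose by 0.52 ± 0.08 (adjusted p = 0.00297), and Creld2, a stress-induced protein of the reticulum, by 0.57 ± 0.09 (adjusted p = 0.004), both also in each genotype alone. The sensor kinases rose on average too: Eif2ak3 (PERK) by 0.64 ± 0.09 (adjusted p = 0.00214) and Ern1 (IRE1 alpha) by 0.51 ± 0.11 (adjusted p = 0.0114). Dnajc10, a J-domain reductase that takes disulfides apart, fell by 0.51 on the same scale (adjusted p = 0.00342), from 6.46 to 7.21 FPKM in the stem-like libraries to 3.85 to 5.17 in term-diff. The other 7 that rose on average, named after their values were seen, were Sdf2l1, Pdia6, Pdia3, Ero1lb, Canx, Ero1l and Manf, by 0.31 to 0.63. None of the 28 passed between genotypes in stem-like cells (1 at an unadjusted p under 0.05), in term-diff cells (3 at that level), on average (4) or in the interaction (2).

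**Figure D2:**
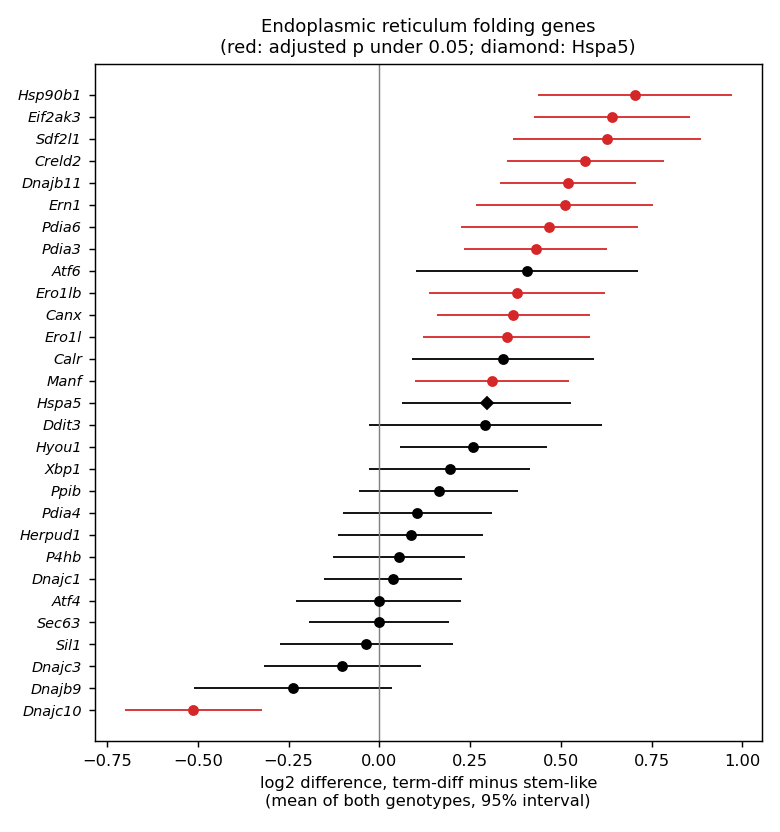
Difference between term-diff and stem-like cells, averaged over genotypes, for Hspa5 (diamond) and 28 other genes of endoplasmic reticulum folding, on the log2(FPKM + 1) scale with 95% intervals; red marks an adjusted p under 0.05. In red, 12 points lie above 0, led by Hsp90b1 at 0.70, 1 lies below 0 (Dnajc10), and Hspa5 stands at 0.30 with an interval above 0.

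Over the 10 chaperones together, the fit across all genes called 0 in each comparison. The background was 13.1% of genes called between subsets in wild type, 9.45% in Cd69-deficient cells and 20.5% in the average over genotypes. Between genotypes it was 0.153% in stem-like cells, 0.194% in term-diff cells and 0.542% on average, and for the interaction 0.0307%. At an unadjusted p under 0.05 the members were 2 in the averaged subset comparison (Hspa5 and Hspd1), 1 in the averaged genotype comparison (Hsph1) and 0 in the other 5. With so few genes called between genotypes, 0 of 10 is near the background there. The median of the 10 genotype differences was -0.20 on average over subsets, against 0.00 over all genes. Of the 10, 8 were below 0, against 4854 of all 9782 genes, and Hspa5 and Hspa8 were the 2 above 0. The 8 include Hspa1a and Hspa1b, whose rows are not independent measurements. Where 2 libraries were set against 2, the members whose groups did not overlap were 3 of 10 between subsets in wild type and 3 in Cd69-deficient cells (55.2% and 56.8% of all genes), and between genotypes 1 in stem-like and 4 in term-diff cells (37.8% and 47.8%). Between subsets the medians of the 10 differences were 0.02 in wild type, where all genes had 0.06, and 0.00 in Cd69-deficient cells, where all genes had -0.03.

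**Figure D3:**
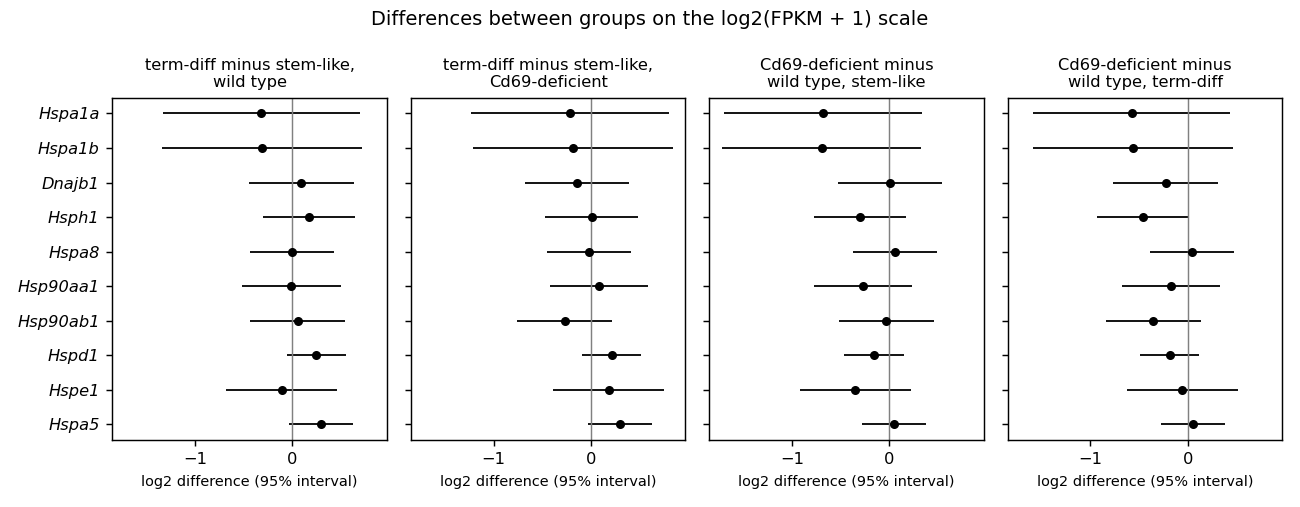
Differences of the 10 chaperones in 4 comparisons, on the log2(FPKM + 1) scale with 95% intervals from limma. The intervals of Hspa1a and Hspa1b are the widest, about 1 log2 on either side, and all intervals include 0.

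The 10 genes fell apart by how much they varied within groups. The residual SD between libraries of the same group was 0.61 log2 for Hspa1a and 0.62 for Hspa1b, larger than in 94.4% and 94% of genes of like level. Dnajb1 (0.30), Hspe1 (0.32) and Hsph1 (0.25) also exceeded 96.4%, 93% and 90.8% of genes of like level. At the other end, Hsp90ab1 (0.08) exceeded 6.21%, Hspa5 (0.07) 6.72% and Hspa8 (0.10) 19.0%; the median over all genes was 0.15. Hsp90aa1 (0.24) and Hspd1 (0.12) lay between, at 61.5% and 38.6%. The residual SD was above the counting SD implied by the deposited intervals for all 10 genes, by 14.2 times for Hspa1b, 13.8 for Hspa1a, 9.10 for Hsp90aa1, 4.70 for Hsp90ab1, 4.61 for Hspa8 and 4.6 for Hsph1. It was 3.39 times that SD for Dnajb1, 2.66 for Hspe1, 1.84 for Hspa5 and 1.75 for Hspd1. These ratios also rise with abundance, since counting error shrinks, so they do not rank the genes by spread.

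**Figure D4:**
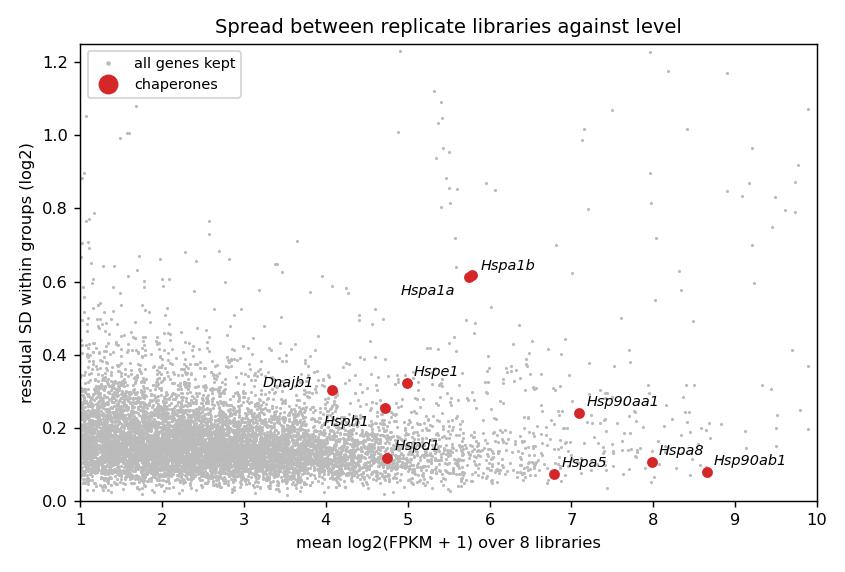
Residual SD between libraries of the same group (log2) against mean level (log2(FPKM + 1)) for the genes kept (grey; genes beyond the axes are not drawn) and the 10 chaperones (red). Hspa1a and Hspa1b lie near 0.6, far above most genes of their level, and Hspa5, Hspa8 and Hsp90ab1 lie at or below 0.10.

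The libraries of each group were also compared for which of them held more of each gene. In the library of each group with more Hspa1, Hsph1, Hspa8 and Hsp90ab1 were also higher in 4 of 4 groups, Hsp90aa1, Hspd1, Hspe1 and Dnajb1 in 3 of 4, and Hspa5 in 2 of 4. The sizes differed widely: Hsph1 was 1.01- to 1.49-fold higher there, and Hspa8 1.00- to 1.17-fold. How many of all genes did the same was not counted, so these counts are given as a description only. Genes of a library share its depth and sort. The permutations below ran over all 8 libraries regardless of group, so differences between groups also enter r, rho and p. The summed Hspa1 level was compared with 11 measures by exact permutation tests on the log scale. By Pearson's r it correlated most with Hsp90aa1 (r = 0.88, p = 0.00858, BH-adjusted 0.0944; Spearman rho = 0.71, p = 0.0576, BH-adjusted 0.316) and with Hsph1 (r = 0.81, p = 0.0206, BH-adjusted 0.113; rho = 0.62, p = 0.115, BH-adjusted 0.316), and by Spearman's rho most with Hsp90ab1 (r = 0.68, p = 0.0730, BH-adjusted 0.161; rho = 0.76, p = 0.0368, BH-adjusted 0.316). Without the 2 libraries farthest from the median Hspa1 level (wild-type stem-like 1 and Cd69-deficient term-diff 1), r was 0.79 for Hsp90aa1, 0.91 for Hsph1 and 0.46 for Hsp90ab1. None of the 11 passed after adjustment. Hspa5 gave r = -0.36, which turned to 0.38 without those 2 libraries. The small RNA share gave r = -0.22, the implied fragments r = -0.20 (0.03 without those libraries), and the mean of 16 immediate early genes, which sorting and tissue dissociation are known to induce, r = -0.35.

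**Figure D5:**
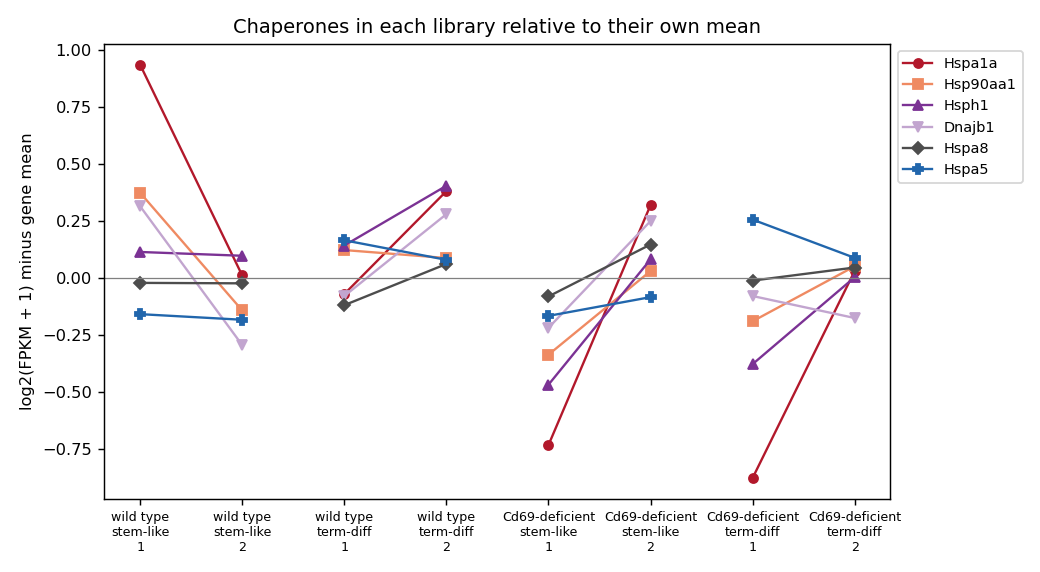
The levels of 6 chaperones in each library as the difference from the gene's own mean over the 8 libraries (log2(FPKM + 1)); lines join the libraries of 1 group. Hspa1a spans the widest range, Hsp90aa1, Hsph1 and Dnajb1 lean the same way in most groups, Hspa8 stays near 0, and Hspa5 is above 0 in the 4 term-diff libraries and below 0 in the 4 stem-like libraries.

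The rest of the chaperone network showed few differences between subsets, averaged over genotypes, against the 20.5% of all genes. Of 7 other HSP70 and HSP110 genes tested, 1 rose: Hspa4, an exchange factor related to Hsph1, by 0.48 ± 0.10 (limma, adjusted p = 0.0117). Hspa4 went from 22.7 and 23.5 FPKM in stem-like to 36.3 and 37.3 in term-diff cells in wild type. Without Cd69 it went from 21.2 and 23.8 to 31.5 and 24.7. Of 18 J-domain genes, Dnajb6, which keeps aggregation-prone proteins apart, rose by 0.49 ± 0.12 (adjusted p = 0.0227), and Dnajb2 fell by 0.41 (adjusted p = 0.0417). Dnajb6 went from 29.9 and 37.4 to 50.7 and 53.6 in wild type, and from 35.4 and 32.0 to 49.7 and 37.6 without Cd69. In Cd69-deficient cells alone, 0 of the 7 and 0 of the 18 passed, against 9.45% of all genes. Of 22 co-chaperones of HSP70 and HSP90, 1 rose and 1 fell. The fall was that of St13, which holds HSP70 in its client-bound state and fell by 0.53 (adjusted p = 0.00384) from 41.0 to 48.1 FPKM to 30.4 to 32.2. Of 13 subunits of the chaperonin TRiC and of prefoldin, Pfdn2 rose by 0.37 ± 0.09 (adjusted p = 0.0188). No mitochondrial chaperone or protease of 15 passed in that average (2 at an unadjusted p under 0.05), though Clpp fell by 0.77 in wild type (adjusted p = 0.0396).

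Of 6 heat shock factors and binding proteins listed, 3 were tested. Hsf1, the main activator of the inducible genes, averaged 6.59 ± 0.76 FPKM (SD, n = 2) in wild-type stem-like, 7.80 ± 1.0 in wild-type term-diff, 6.73 ± 1.8 in Cd69-deficient stem-like and 6.25 ± 0.90 in Cd69-deficient term-diff. None of the 3 genes tested (Hsf1, Hsf2 and Hsbp1) passed in any comparison (at most 1 at an unadjusted p under 0.05), and none of 3 small heat shock proteins did (at most 2 at that level). In none of these chaperone lists, those of the endoplasmic reticulum included, did a gene pass between the genotypes (0 to 4 per list and comparison at that level). Of the 16 immediate early genes, 1 rose (Egr1, by 0.91) and 6 fell between subsets, averaged over genotypes (10.5% and 9.93% of all genes). The falls were led by Jun (-1.13 ± 0.11, limma, adjusted p = 0.000259) and Fos (-0.81 ± 0.12, adjusted p = 0.00206), while Hspa1a showed no call there. The part of the immediate early genes in the chaperone levels was not tested.

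Among 4730 other genes with a mean of at least 5 FPKM, the 5 whose log2 profile over the 8 libraries was most like that of Hspa1a were Dkc1 (r = 0.90), Gm12669 (0.90), Ubxn6 (0.89), Phpt1 (0.88) and Naa20 (0.86). For Hspa8 they were Vps16 (0.88), Plekhj1 (0.87), Zfp207 (0.86), Nf2 (0.86) and Atp5a1 (0.85). Each is the top of 4730 values over only 8 libraries, and is given as a description.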

How the data were processed

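RNA-seq was measured in 8 libraries (total RNA, a low-input stranded kit, NextSeq500, single-end reads of 76 cycles, per the labels). The authors deposited 1 gene table per library with expression in FPKM and the limits of its confidence interval; Cufflinks 2.2.1, TopHat 1.3.2, Bowtie2 2.3.4 and bcl2fastq 2.20, with mouse build mm10, are listed in the submitters' processing notes, while annotation, strand setting and the treatment of reads that match several genes are not given in the sources used here. The tables hold no read counts, so depth was approximated by implied fragments, (2 × FPKM / distance to the upper limit) squared, which cover counting error only.

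From the deposited FPKM, log2(FPKM + 1) was computed for the 9782 genes that reached 1 FPKM in 2 or more libraries with a status of OK (3 rows had another status). A pseudocount of 1 makes the differences of low genes smaller. Under R 4.3.3, limma 3.58.1 fitted 4 group means with a trended empirical Bayes prior (4 residual degrees of freedom, prior 4.2). This prior pulls the spread of each gene toward that of genes of like level. It widened the standard errors of Hsp90ab1, Hspa8 and Hspa5 and narrowed those of Hspa1a and Hspa1b. Tests were 2-sided and called at 0.05 after Benjamini-Hochberg adjustment over the genes kept. A separate limma fit of the same form was tried on simulated data, for wild-type term-diff against wild-type stem-like only. Comparisons were between subsets in each genotype, between genotypes in each subset, both averages, and the interaction. Exact permutation tests of single genes and correlations used SciPy 1.17.1. Genes of like level are up to 250 kept genes on either side in mean level. The share of transcript stretches found in other genes came from GENCODE vM21 and promoters from the RefSeq table of GRCm38.p6.

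The 10 genes and all lists were chosen with earlier results of these data known. Named were the 10 genes in every library, of each other list up to 4 that passed by smallest p in each comparison, the 5 genes most like Hspa1a and Hspa8, and the label checks; others are said to be named after their values were seen. Alternatives covered pseudocounts, filters, scalings, priors, thresholds, the replicate number as a block, fits of the compared groups alone, both Hspa1 genes summed, and leaving out libraries. A gene of the lists is not reported here.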

Additional observations from a re-analysis of the deposited data

How the results depend on the processing

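Over the alternatives, 1445 of 1447 values of the 70 differences (10 chaperones in 7 comparisons) kept their side of the threshold, and 116 uncalled differences changed sign. All 70 were uncalled in the main fit, and leaving out libraries lowers the power. The count of kept sides therefore says little about stability. The averaged subset difference of Hspa5 ran from 0.10 to 0.34. The number of chaperones called stayed at 0 in every comparison and alternative except the subset comparison averaged over genotypes, where it was 1 (Hspa5) with no trend in the prior (adjusted p = 0.0467) and 1 at a threshold of 0.1. With the replicate number as a block it was 0 in every comparison, with an adjusted p of 0.125 for Hspa5, and the list of 28 endoplasmic reticulum genes had 9 rises on average, 5 in wild type and 0 in Cd69-deficient cells. The labels tie the replicate numbers to no shared mouse or batch, so the numbers were not taken to pair the libraries. Libraries with the same number deviated from their group means with correlations of -0.30 to 0.15 across genes. Between the subsets of 1 genotype the correlation was 0.15 in wild type and -0.16 in Cd69-deficient cells. Both wild-type libraries numbered 2 had low small RNA shares (63.7% and 56.1%). Whether same-numbered libraries shared mice or a sort cannot be told from these values.

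The background counts also depend on the processing. They cannot be set against the count of chaperones called, which was 0 in the main fit and could not fall. Genes called between subsets numbered 1278 in wild type, 362 to 783 without 1 or both of the wild-type libraries numbered 2 or another wild-type library, and 752 without a filter; 924 in Cd69-deficient cells, 287 to 418 without 1 of its own libraries, 545 without a filter and 1441 at a threshold of 0.1; and 2001 on average, 1280 without Cd69-deficient stem-like replicate 1, 1310 with a minimum of 5 FPKM and 1307 without both wild-type libraries numbered 2. Between genotypes they ran from 4 to 35 in stem-like (15 as reported), 3 to 78 in term-diff (19) and 13 to 103 on average (53), and for the interaction from 2 to 17 (3). Scaling to equal sums outside small RNA moved the rises and falls between subsets from 380 and 544 to 262 and 675 in Cd69-deficient cells, and from 1030 and 971 to 755 and 1117 on average. With 2 libraries per group, the intervals between single groups reach about 1 log2 on either side for Hspa1a and 0.3 for Hspa5, and those of the averaged comparisons are narrower.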
